A study of Mus musculus with 12 samples.

Results

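Primary (azurophil) granules are the first granules that a neutrophil precursor makes, and 8 genes for their proteins or for proteins of the same progenitor stage were followed here: Mpo, Elane, Prtn3, Ctsg, Ctsc, Ms4a3, Prss57 and Nkg7. They were found as the probe sets whose only gene symbol was 1 of these names. Of the 8 genes, 7 had such a probe set and all 7 were among the 10817 genes tested. Prss57, a granule serine protease, was not found by this rule and was not analysed here.

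RNA was measured on 12 Affymetrix mouse arrays, 3 in each of 4 groups of leukaemic stem cells. In every group, donor stem and progenitor cells (the KLS fraction) had been infected with oncogenes and transplanted, and the leukaemia that grew was sorted without any treatment. Blast crisis chronic myelogenous leukaemia (bcCML) was started with BCR-ABL and NUP98-HOXA9, and its Lin- cells were taken from leukaemias of Msi2 Gt/Gt donors (Msi2 mutant) and of wild-type donors. De novo acute myelogenous leukaemia (AML) was started with MLL-AF9, and its Lin-Sca1-ckit+ cells were likewise taken from Msi2 mutant and from wild-type leukaemias. Gt marks a gene trap in Msi2, the gene of the RNA-binding protein Musashi2, and the trap was present in the donor cells before the oncogenes were introduced. The labels give the strain B6;CB-Msi2Gt(pU-21T)2Imeg for all 12 samples and give no age. Since the sort also differed, the driving oncogenes and the sorted population cannot be told apart in any comparison of bcCML with AML.

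Azurophil granules are packed at the promyelocyte stage, when the genes of their proteins are transcribed at very high levels and later shut off. Myeloperoxidase (Mpo) makes hypochlorous acid from hydrogen peroxide and chloride. Neutrophil elastase (Elane), proteinase 3 (Prtn3) and cathepsin G (Ctsg) are serine proteases stored in active form, and cathepsin C (Ctsc, dipeptidyl peptidase I) is the lysosomal protease that activates them by removing a short N-terminal peptide. Ms4a3 encodes a membrane protein that marks granulocyte-monocyte progenitors, and Nkg7 encodes a granule membrane protein best known from natural killer and cytotoxic T cells.

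The promoters of 5 genes are shown: Elane and Prtn3, whose levels followed each other most closely over the arrays, the other granule enzyme genes Ctsg and Mpo, and Nkg7, whose levels were higher in wild-type bcCML than in wild-type AML. Ctsc and Ms4a3 are not printed and entered the motif counts only. Each sequence is the 250 bases before the RefSeq start of the gene on its own strand (GRCm38.p6). They are chr10:79886062-79886311 for Elane, chr10:79879417-79879666 for Prtn3, chr11:87793534-87793783 for Mpo and chr7:43436888-43437137 for Nkg7, all on the plus strand, and chr14:56102575-56102824 for Ctsg on the minus strand. Capitals mark the PU.1 core GAGGAA, the Myb core AACGG and the TATA letters TATAA, each on either strand.
Elane: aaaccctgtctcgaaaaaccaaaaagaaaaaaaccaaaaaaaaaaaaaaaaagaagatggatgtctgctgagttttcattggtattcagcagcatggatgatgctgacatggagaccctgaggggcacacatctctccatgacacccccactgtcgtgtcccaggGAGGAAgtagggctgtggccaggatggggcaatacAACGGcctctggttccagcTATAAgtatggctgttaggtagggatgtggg
Prtn3: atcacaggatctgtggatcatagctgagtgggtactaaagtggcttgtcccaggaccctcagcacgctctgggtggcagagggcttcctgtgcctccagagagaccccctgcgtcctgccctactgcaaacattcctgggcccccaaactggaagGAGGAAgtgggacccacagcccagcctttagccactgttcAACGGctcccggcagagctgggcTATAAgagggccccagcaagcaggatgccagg
Ctsg: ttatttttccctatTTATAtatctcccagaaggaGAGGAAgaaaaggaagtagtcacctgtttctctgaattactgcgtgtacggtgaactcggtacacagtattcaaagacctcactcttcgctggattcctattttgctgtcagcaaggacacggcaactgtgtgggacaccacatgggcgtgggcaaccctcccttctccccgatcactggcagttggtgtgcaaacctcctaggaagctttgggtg
Mpo: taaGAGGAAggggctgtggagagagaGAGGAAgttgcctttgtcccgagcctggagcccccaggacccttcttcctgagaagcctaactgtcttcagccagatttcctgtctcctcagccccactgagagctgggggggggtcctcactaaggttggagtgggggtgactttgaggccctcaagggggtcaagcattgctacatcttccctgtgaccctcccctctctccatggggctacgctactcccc
Nkg7: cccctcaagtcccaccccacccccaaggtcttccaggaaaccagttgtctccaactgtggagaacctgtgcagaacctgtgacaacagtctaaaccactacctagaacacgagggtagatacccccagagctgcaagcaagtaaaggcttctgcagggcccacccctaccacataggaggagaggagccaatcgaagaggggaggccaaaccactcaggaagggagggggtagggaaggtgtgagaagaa
The letters were searched on both strands in the 250 bases before all 32851 starts of the RefSeq table, and the letters AACGG were chosen after the sequences had been read. GAGGAA, a core bound by the myeloid factor PU.1, stood before 5 of the 7 genes (Mpo, Elane, Prtn3, Ctsg and Ctsc) and before 23.3% of all starts. AACGG, a core bound by Myb, stood before Elane and Prtn3, and before 14.5% of all starts. TGTGGT, bound by Runx factors, stood before Ctsg and Nkg7 and before 14.0% of all starts, and TTGCNNAA, bound by C/EBP factors, stood before 0 of the 7 genes and 9.56% of all starts. TATAA stood before Elane, Prtn3 and Ctsg and before 22.8% of all starts.

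Elane and Prtn3 are neighbours on chromosome 10, and their promoters held the same 3 motifs in the same order. In Elane GAGGAA lay at bases 85 to 80 before the start, AACGG at 50 to 46 and TATAA at 31 to 27. In Prtn3 the same letters lay at bases 95 to 90, 55 to 51 and 32 to 28. The longest runs that both promoters shared were 9 bases long, GGAGGAAGT, found in 1.02% of all promoters, and TGTCCCAGG, found in 0.517%. In Ctsg the TATAA letters lay at bases 236 to 232 on the opposite strand, far from the position they had in the other protease genes. These matches describe the sequence only, and binding was not measured.

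Msi2 itself checked the labels. Its probe set with the highest mean log2 intensity gave 487, 721 and 608 intensity units in Msi2 mutant bcCML against 2583, 4319 and 4579 in wild-type bcCML, a log2 difference of -2.63 ± 0.34 (SE, limma adjusted p = 0.0200). It gave 52.9, 69.1 and 86.9 units in Msi2 mutant AML against 325, 181 and 430 in wild-type AML, a log2 difference of -2.11 ± 0.34 (adjusted p = 0.0211). Of its 4 other probe sets that passed the filter, all lower on average in mutants, 0 passed in bcCML (log2 differences between -1.11 and -2.17, adjusted p between 0.235 and 0.533 over 19413 probe sets) and 2 passed in AML (adjusted p = 0.00113 and 0.00468). Kit, the gene of the receptor used in the AML sort, was present on every array, at 78.2 to 261 units in Msi2 mutant bcCML, 134 to 546 in wild-type bcCML, 242 to 435 in Msi2 mutant AML and 169 to 332 in wild-type AML. Correlations between arrays of a group were 0.944 to 0.981 over all probe sets. All values are the deposited GCRMA intensities on a linear scale, tests ran on their log2, and p values were adjusted by Benjamini-Hochberg over 10817 genes, with 0.05 as the threshold. The sample titles name biological replicates without saying which animals they came from, so p values measure the spread between these samples.

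Elane, the elastase gene, showed the widest span of the 7 genes. Its intensity was 206, 621 and 118 units in Msi2 mutant bcCML and 2066, 1709 and 280 in wild-type bcCML, against 29066, 28651 and 26459 in Msi2 mutant AML and 16788, 23888 and 9850 in wild-type AML. Every bcCML array lay below every AML array. Within bcCML, array 3 of the wild-type group lay among the mutant arrays, and within AML the lowest mutant array lay above the highest wild-type array. Between the leukaemias Elane was 113-fold lower in Msi2 mutant bcCML than in Msi2 mutant AML (log2 difference -6.83 ± 0.77, SE, limma adjusted p = 5.95e-05). Among wild-type leukaemias it was 15.9-fold lower in bcCML (-3.99 ± 0.77, adjusted p = 0.00251). Lower RNA per cell and fewer cells carrying the RNA cannot be told apart in these bulk samples. The order of the group means was Msi2 mutant AML, wild-type AML, wild-type bcCML and Msi2 mutant bcCML, and in neither leukaemia did the mutant differ from wild-type past the threshold.

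Prtn3, which encodes proteinase 3, followed the same order. It gave 698, 1160 and 544 units in Msi2 mutant bcCML and 3446, 3024 and 865 in wild-type bcCML, against 22328, 19686 and 22043 in Msi2 mutant AML and 14076, 18352 and 10883 in wild-type AML. Again bcCML and AML arrays did not overlap, wild-type bcCML array 3 lay within the mutant range, and the AML mutant arrays all exceeded the AML wild-type arrays. Prtn3 was 28.0-fold lower in bcCML than in AML among mutants (log2 difference -4.81 ± 0.48, SE, adjusted p = 2.53e-05) and 6.78-fold lower among wild types (-2.76 ± 0.48, adjusted p = 0.00132).

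Ctsg, the cathepsin G gene, differed between the leukaemias past the threshold among mutants. Msi2 mutant bcCML gave 2872, 5145 and 771 units and wild-type bcCML 15426, 10948 and 4922, against 26449, 27481 and 28070 in Msi2 mutant AML and 24470, 27412 and 13761 in wild-type AML. In bcCML the brightest mutant array barely exceeded the dimmest wild-type array, and in AML the genotypes overlapped. Among mutants Ctsg was 12.1-fold lower in bcCML (log2 difference -3.60 ± 0.63, SE, adjusted p = 0.00108). Among wild types the difference was -1.16 ± 0.63 (adjusted p = 0.181, 95% interval -2.56 to 0.25), and array 1 of wild-type bcCML lay above array 3 of wild-type AML.

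Mpo, the myeloperoxidase gene, was the most uneven gene among wild-type AML arrays. Its intensity was 6635, 7358 and 1569 units in Msi2 mutant bcCML and 10896, 8486 and 3319 in wild-type bcCML, against 26863, 25129 and 24771 in Msi2 mutant AML and 5900, 17242 and 1528 in wild-type AML. The mutant AML arrays stood within 1.08-fold of each other and above all 9 other arrays, while the wild-type AML arrays spread over 11.3-fold and overlapped both bcCML groups. Mpo was 6.02-fold lower in Msi2 mutant bcCML than in Msi2 mutant AML (log2 difference -2.59 ± 0.85, SE, adjusted p = 0.0301). Without array 3 of Msi2 mutant bcCML this difference was -1.87 with an adjusted p of 0.113, and without any 1 of the 3 mutant AML arrays the adjusted p lay between 0.0643 and 0.0663. Among wild types the difference was 0.33 ± 0.85 (adjusted p = 0.79), with a 95% interval of -1.56 to 2.22.

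Ms4a3, the progenitor marker, was lower in bcCML than in AML past the threshold among mutants. It gave 4064, 4151 and 1060 units in Msi2 mutant bcCML and 7964, 8691 and 3291 in wild-type bcCML, against 10627, 8020 and 10329 in Msi2 mutant AML and 8250, 9465 and 4421 in wild-type AML. All Msi2 mutant bcCML arrays lay below all AML arrays of both genotypes, and the 3 other groups overlapped each other. Ms4a3 was 3.67-fold lower in Msi2 mutant bcCML than in Msi2 mutant AML (log2 difference -1.87 ± 0.55, SE, adjusted p = 0.0189), with an adjusted p of 0.0550 without mutant bcCML array 3 and 0.0506 without mutant AML array 3. Among wild types the difference was -0.20 ± 0.55 (adjusted p = 0.803, 95% interval -1.43 to 1.03).

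Ctsc, the gene of the activating protease, had higher values in bcCML than in AML. Its brightest probe set gave 848, 1999 and 1164 units in Msi2 mutant bcCML and 1201, 2385 and 1351 in wild-type bcCML, against 192, 810 and 647 in Msi2 mutant AML and 786, 525 and 576 in wild-type AML. All 6 bcCML arrays lay above all 6 AML arrays, and the genotypes overlapped within each leukaemia. Ctsc was 2.69-fold higher in bcCML among mutants (log2 difference 1.43 ± 0.52, SE, adjusted p = 0.0465). That call was close to the threshold and was lost when any 1 of 8 arrays was left out, with adjusted p up to 0.16. Among wild types the difference was 1.34 ± 0.52 (adjusted p = 0.0684). Ctsc had 2 further probe sets that passed the filter. The one whose probes may also match related transcripts (suffix s_at) gave log2 differences of 2.15 among mutants and 2.08 among wild types (adjusted p = 0.0143 and 0.0207 over 19413 probe sets). The last gave 0.90 and 1.38 (adjusted p = 0.0661 and 0.0134).

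Nkg7 was high in bcCML of both genotypes. It gave 10650, 8522 and 9077 units in Msi2 mutant bcCML and 7615, 8332 and 8909 in wild-type bcCML, against 8026, 5198 and 7558 in Msi2 mutant AML and 3001, 5018 and 1482 in wild-type AML. All wild-type AML arrays lay below all others, and the brightest AML array lay above the dimmest wild-type bcCML array. Nkg7 was 2.94-fold higher in wild-type bcCML than in wild-type AML (log2 difference 1.55 ± 0.36, SE, adjusted p = 0.0074). Among mutants the groups did not overlap either, but the difference of 0.46 ± 0.36 did not pass (adjusted p = 0.332, 95% interval -0.35 to 1.27).

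**Figure D1:**
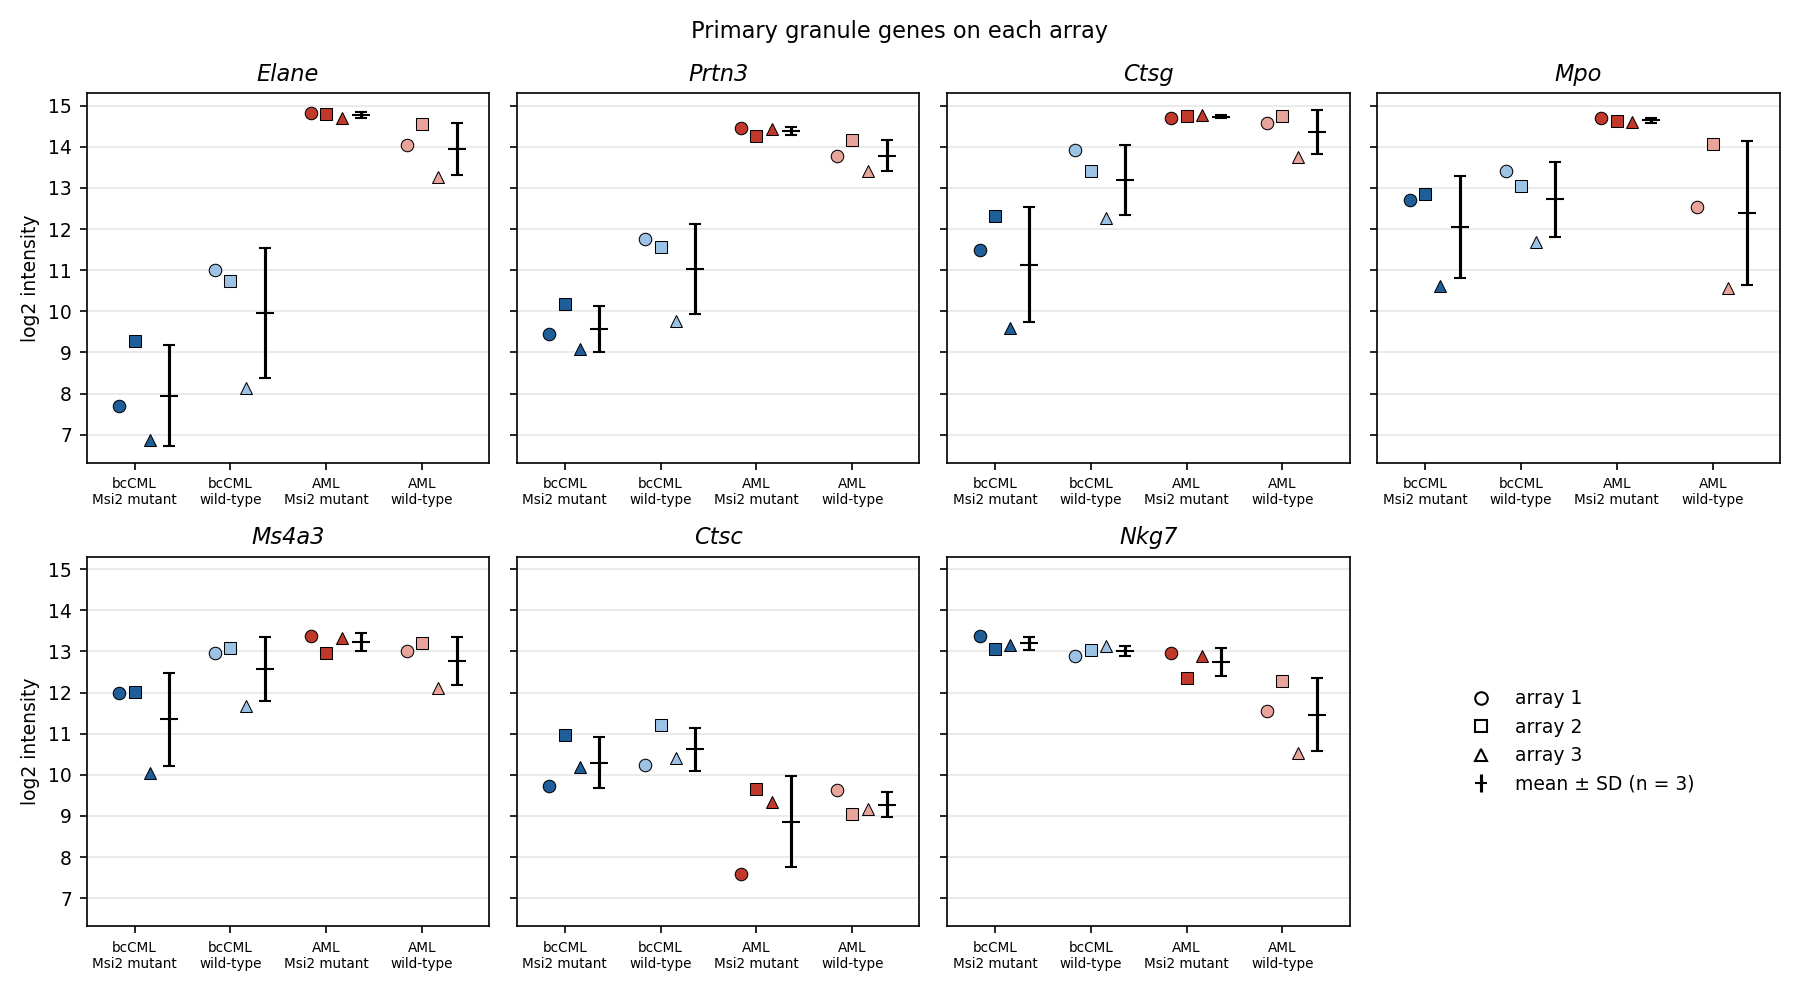
Log2 intensity (vertical axis) of the 7 genes on each array of the 4 groups (horizontal axis), with arrays 1, 2 and 3 as circles, squares and triangles, and the mean ± SD of 3 arrays as a black bar. Elane and Prtn3 lie lower on every bcCML array than on any AML array, Ctsc lies higher, and the mutant AML arrays of Elane, Prtn3, Ctsg and Mpo lie close together.

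Set against all genes, the comparison of bcCML with AML called much of the genome. Among Msi2 mutants 6 of the 7 genes passed the threshold, 5 lower in bcCML (Mpo, Elane, Prtn3, Ctsg and Ms4a3) and 1 higher (Ctsc), where 45.1% of all genes tested passed, 21.9% lower and 23.2% higher. The groups did not overlap in any of the 7, lower in bcCML in 5 (26.5% of all genes) and higher in 2, Ctsc and Nkg7 (29.0%). Their median log2 difference was -2.59, beside 0.03 over all genes. Among wild types 3 of the 7 passed, Elane and Prtn3 lower and Nkg7 higher, where 36.9% of all genes passed, 19.3% lower and 17.7% higher. The groups did not overlap in 2 genes higher in bcCML, Ctsc and Nkg7 (25.6% of all genes), or in 2 lower, Elane and Prtn3 (26.8%). The median of the 7 genes was then -0.20, beside 0.00 (0.0041) over all genes. Without array 3 of Msi2 mutant bcCML, 3 of the 7 genes passed among mutants (Elane, Prtn3 and Ctsg). Elane and Prtn3 in both genotypes, Ctsg among mutants and Nkg7 among wild types passed whichever 1 array was left out, the highest adjusted p being 0.0275 for Nkg7.

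**Figure D2:**
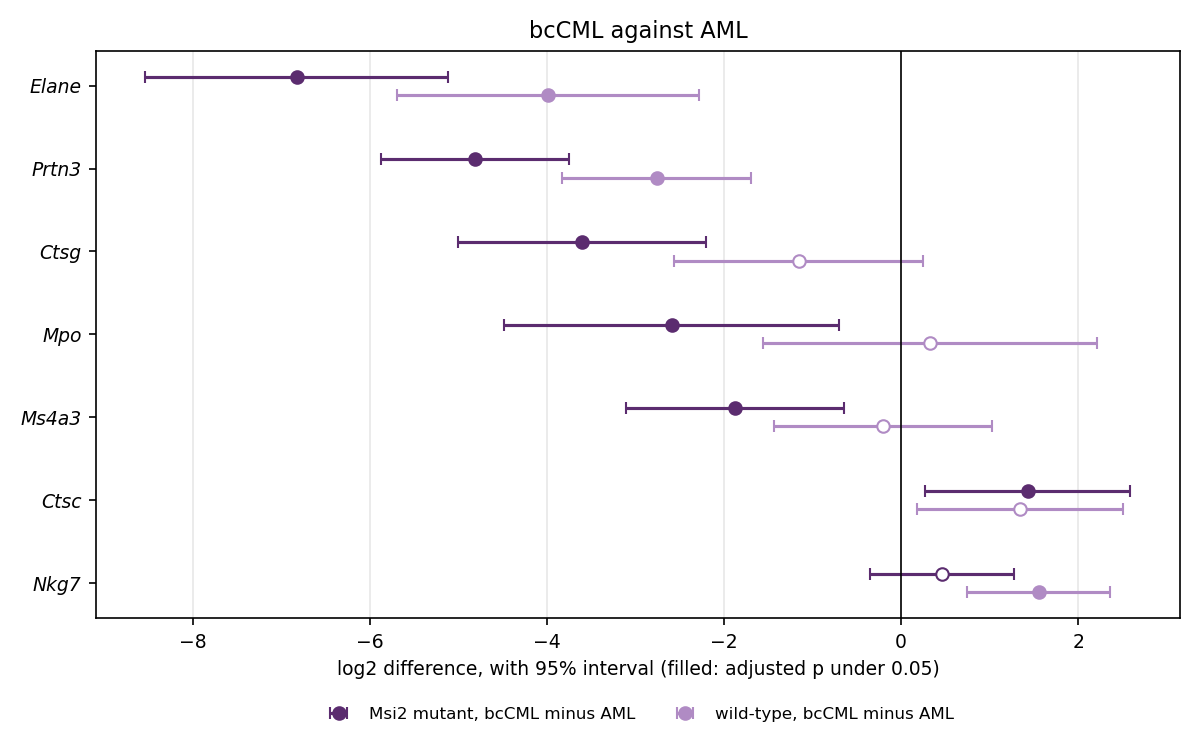
Log2 difference, bcCML minus AML, of the 7 genes (rows), in Msi2 mutants (dark) and wild types (light), with 95% intervals and filled points where adjusted p is under 0.05. Elane and Prtn3 lie far below 0 in both genotypes, at -6.83 and -4.81 among mutants, and Ctsc and Nkg7 lie above 0.

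Between Msi2 mutant and wild-type bcCML none of the 7 genes passed the threshold, and the mean log2 value of 6 of them was lower in the mutant. The log2 differences, mutant minus wild-type, were -2.06 ± 0.63 for Ctsg (SE, limma adjusted p = 0.422), -2.01 ± 0.77 for Elane (adjusted p = 0.543), -1.45 ± 0.48 for Prtn3 (adjusted p = 0.468) and -1.22 ± 0.55 for Ms4a3 (adjusted p = 0.601). Mpo differed by -0.67 and Ctsc by -0.32, and Nkg7 by 0.18. By limma 0 of the 7 genes passed, where 0.139% of all genes passed, 0.0370% higher and 0.102% lower. An unadjusted p under 0.05 was found for 3 of the 7 and for 900 of all 10817 genes. By the brightest probe set of each gene, mutant and wild-type arrays overlapped in all 7, where 5.83% of all genes lay apart and higher and 10.1% apart and lower. The 2 further Ctsc probe sets gave -1.31 (suffix s_at) and -0.57 (limma adjusted p = 0.588 and 0.712 over 19413 probe sets). In the last the groups did not overlap, at 135, 150 and 171 units in Msi2 mutant bcCML against 207, 271 and 201 in wild-type bcCML. The median of the 7 was -1.22, beside -0.02 over all genes.

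Same-numbered mutant and wild-type bcCML arrays deviated from their group means together over all genes, which the labels do not mention, and the numbers were therefore treated as pairs. The pairing was drawn from these same values, so the differences within pairs are descriptions, and the block fit below rests on that pairing too. Within pairs, mutant minus wild-type was -3.33, -1.46 and -1.25 for Elane, -2.30, -1.38 and -0.67 for Prtn3, and -2.42, -1.09 and -2.68 for Ctsg on the log2 scale. It was -0.97, -1.07 and -1.64 for Ms4a3, -0.72, -0.21 and -1.08 for Mpo, and -0.50, -0.26 and -0.21 for Ctsc. These 6 of the 7 genes were lower in the mutant in all 3 pairs, as were 22.4% of all genes tested, and Nkg7 was higher in all 3, as were 15.9% of all genes. With the number as a block, 27 genes in place of 15 passed among all genes, and again 0 of the 7, the adjusted p being 0.167 for Ctsg, 0.248 for Elane, 0.266 for Prtn3 and 0.292 for Ms4a3.

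In AML the mutant means of 6 of the 7 genes were higher, and again none of the 7 passed the threshold. The log2 differences, mutant minus wild-type, were 2.25 ± 0.85 for Mpo (SE, limma adjusted p = 0.259), 1.27 ± 0.36 for Nkg7 (adjusted p = 0.131), 0.83 ± 0.77 for Elane (adjusted p = 0.722) and 0.60 ± 0.48 for Prtn3 (adjusted p = 0.664). Ms4a3 differed by 0.45, Ctsg by 0.38 and Ctsc by -0.41. The 2 further Ctsc probe sets gave -1.38 (suffix s_at) and -0.09 (adjusted p = 0.355 and 0.976 over 19413 probe sets). By limma 0 of the 7 passed, where 1.52% of all genes passed, 0.379% higher and 1.14% lower. An unadjusted p under 0.05 was found for 2 of the 7 (Mpo and Nkg7) and for 1538 of all 10817 genes. In Mpo, Elane, Prtn3 and Nkg7 all mutant arrays exceeded all wild-type arrays, 4 of the 7 genes, as in 5.18% of all genes. Nkg7 passed when array 2 of wild-type AML was left out (log2 difference 1.69, adjusted p = 0.0335), and the median of the 7 genes was 0.60, beside -0.05 over all genes.

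Mpo, Elane, Prtn3 and Ctsg were closely spaced among the Msi2 mutant AML arrays, and Ctsc was not. The SD of log2 intensity was 0.06 for Mpo, 0.07 for Elane, 0.10 for Prtn3 and 0.04 for Ctsg in Msi2 mutant AML, against 1.75, 0.64, 0.38 and 0.53 for the same genes in wild-type AML (n = 3 each). For Ctsc it was 1.12 in Msi2 mutant AML against 0.31 in wild-type AML. The spreads were not compared by a test. These mutant values, 19686 to 29066 units, stood beside a maximum over all probe sets of 48172 to 54577 units on each array. Whether signals of this height still rise in proportion to RNA was not tested.

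The change of the Msi2 difference between the leukaemias was tested directly, on the same 12 arrays that the comparisons above share. The bcCML difference minus the AML difference was -2.92 ± 1.20 for Mpo (SE, limma adjusted p = 0.488), -2.84 ± 1.09 for Elane (adjusted p = 0.438), -2.44 ± 0.89 for Ctsg (adjusted p = 0.409) and -2.05 ± 0.68 for Prtn3 (adjusted p = 0.373). Ms4a3 gave -1.67, Nkg7 -1.09 and Ctsc 0.09. None of the 7 genes passed, 4 of them had an unadjusted p under 0.05, and among all 10817 genes 0 passed (0%) and 1014 had an unadjusted p under 0.05. The median of the 7 was -2.05, beside 0.03 over all genes.

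**Figure D3:**
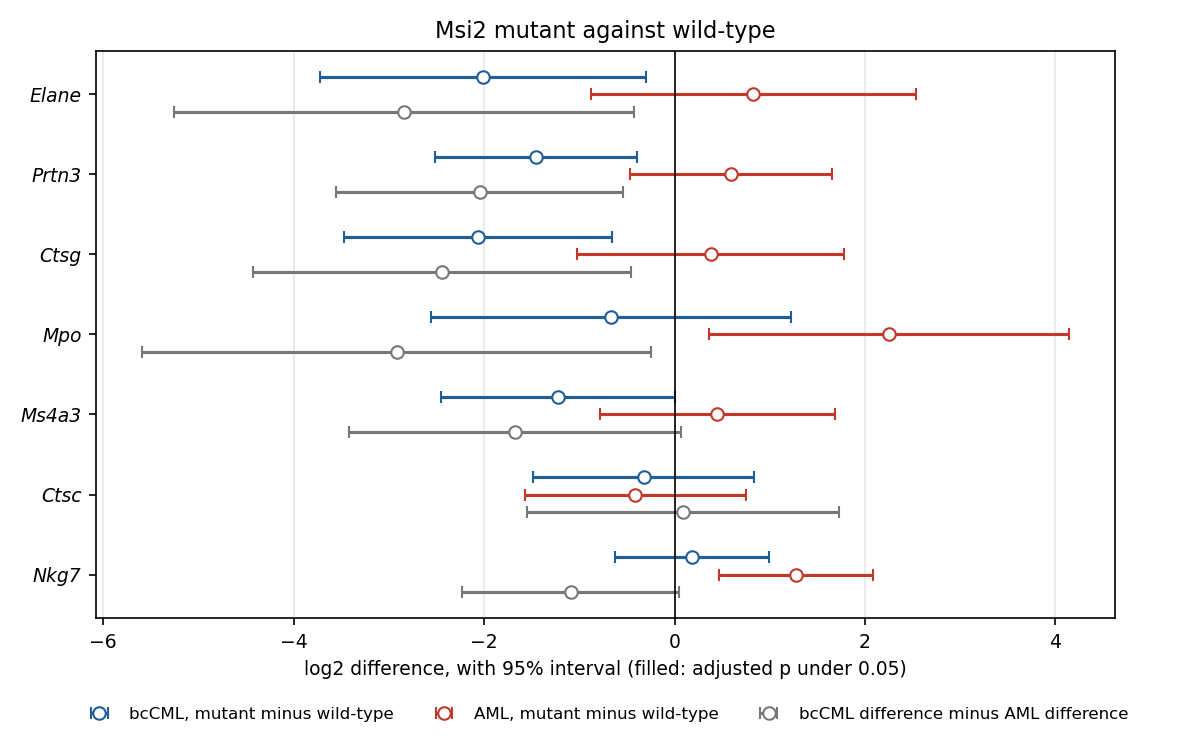
Log2 difference, Msi2 mutant minus wild-type, of the 7 genes (rows) in bcCML (blue) and AML (red), and the bcCML difference minus the AML difference (grey), with 95% intervals. All points are open, since no adjusted p was under 0.05. Elane, Prtn3, Ctsg, Mpo and Ms4a3 lie below 0 in bcCML and above 0 in AML.

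Array 3 was low for most of the genes in 3 of the 4 groups. Among Msi2 mutant bcCML and among wild-type bcCML arrays it was the lowest of the 3 for Mpo, Elane, Prtn3, Ctsg and Ms4a3, 5 of the 7 genes, and among wild-type AML arrays for 6 of the 7, Ctsc being the exception. In Msi2 mutant AML it was the lowest for 2 of the 7 (Mpo and Elane). The mean log2 intensity of the 7 genes was 9.94 on Msi2 mutant bcCML array 3, against 10.92 and 11.53 on the other mutant bcCML arrays, and 11.01 on wild-type bcCML array 3, against 12.31 and 12.30. Markers of mast cells, basophils and eosinophils were, in their mean, also lowest on array 3 of both bcCML groups, and not in wild-type AML. Their mean log2 intensity, over 9 tested genes of 15 with a probe set, was 8.49, 9.52 and 6.91 on the Msi2 mutant bcCML arrays and 10.23, 9.70 and 8.29 on the wild-type bcCML arrays. On the wild-type AML arrays it was 8.57, 7.31 and 7.98, lowest on array 2. Single genes of the list departed from the mean in bcCML. Siglecf was highest on array 3 of wild-type bcCML, and Gata2 was lowest on array 2 of both bcCML groups. Secondary and tertiary granule genes averaged 5.64, 5.98 and 5.28 on the Msi2 mutant bcCML arrays and 6.16, 6.66 and 5.91 on the wild-type bcCML arrays, and progenitor markers 7.61, 7.77 and 7.30 and 8.16, 8.33 and 7.92, both lists again lowest on array 3. On the wild-type AML arrays the secondary and tertiary granule genes averaged 10.865, 10.621 and 11.216, highest on array 3. Progenitor markers averaged 10.969, 10.863 and 10.635 there, lowest on array 3. Megakaryocyte markers averaged 9.22, 6.92 and 8.52 on the Msi2 mutant bcCML arrays and 8.24, 7.16 and 8.28 on the wild-type bcCML arrays, lowest on array 2. Of the 20 tested secondary and tertiary granule genes, 8 lay under the filter on all Msi2 mutant bcCML arrays and 7 on all wild-type bcCML arrays. The part of these lists in the low values was not tested.

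Within each leukaemia the genes followed one another to different degrees. Elane and Prtn3 correlated over the 6 bcCML arrays at r = 0.988 and over the 6 AML arrays at 0.974 (Pearson's r of log2 intensity, given as descriptions, since the arrays within a leukaemia also fall into 2 genotypes). Mpo and Elane correlated at 0.834 in bcCML and at 0.998 in AML, and Ctsg and Ms4a3 at 0.958 and 0.945. Nkg7 ran against Elane in bcCML (r = -0.769) and with it in AML (r = 0.963). Ctsc followed Elane loosely in bcCML (r = 0.564) and not in AML (r = -0.271).

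**Figure D4:**
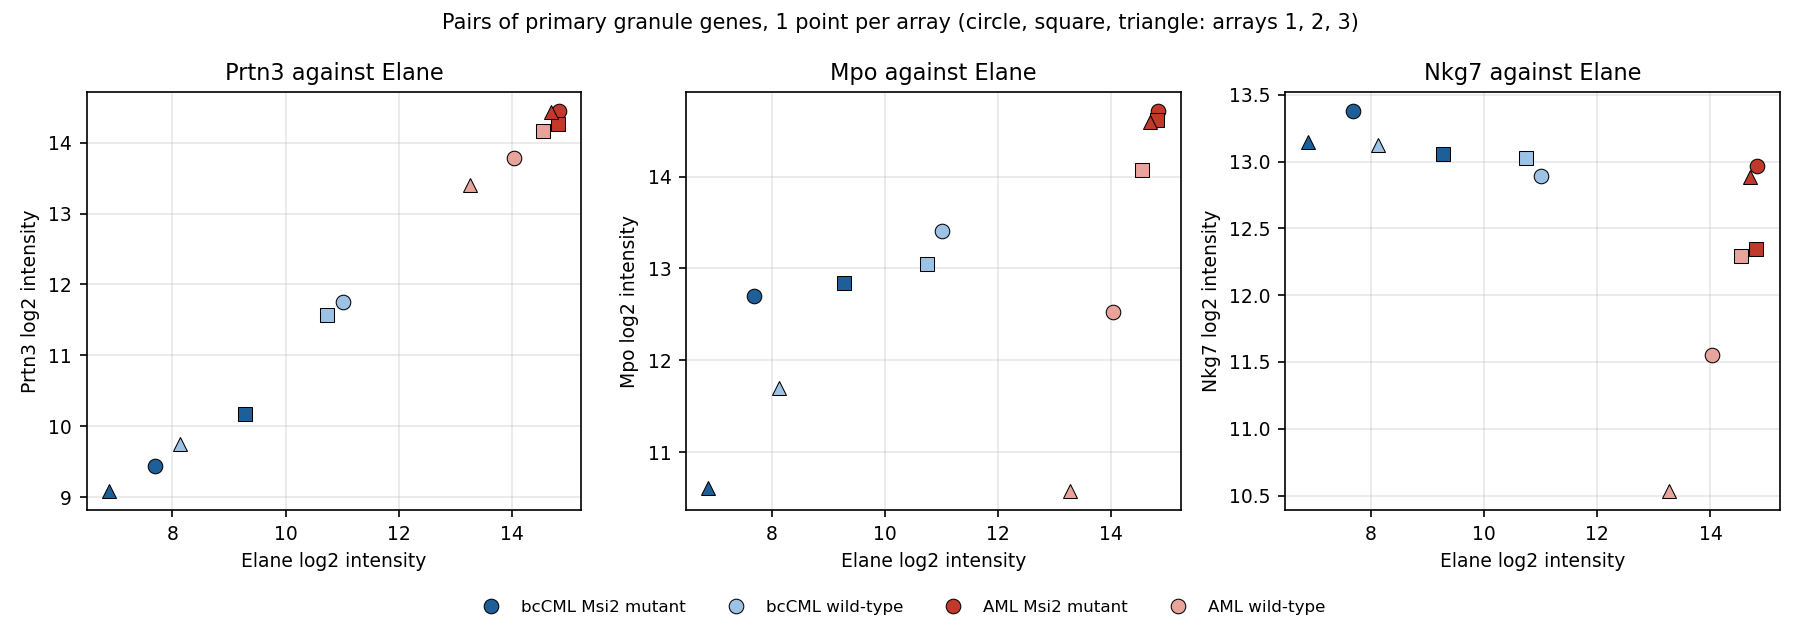
Log2 intensity of Prtn3, Mpo and Nkg7 (vertical axes) against that of Elane (horizontal axes), 1 point per array. Prtn3 rises with Elane along 1 line over all arrays, Mpo takes low values on wild-type AML array 3 at a high Elane level, and the bcCML arrays have high Nkg7 at low Elane.

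Genes outside the 8 with the most similar pattern over all 12 arrays were ranked by Pearson's r of log2 intensity, a measure that the gap between bcCML and AML dominates. For Elane they were Gstm1, a glutathione transferase (r = 0.996), Trem3, a receptor of myeloid cells (0.995), and Igsf6 (0.990). Those for Prtn3 were Trem3 (0.998), Gstm1 (0.992) and Sorl1 (0.989). Ctsg was most like Anxa3, an annexin of neutrophils (0.975), Gfi1, a transcriptional repressor of granulocyte development (0.971), and C730049O14Rik (0.957). Mpo was most like Far2 (0.887), Ppt2 (0.879) and Fgl2 (0.863), and Ms4a3 like Far2 (0.941), Ormdl1 (0.932) and Gfi1 (0.888). Ctsc was most like Rrp1b (0.950), Stard3nl (0.948) and Wdr46 (0.928), and Nkg7 like Mctp1 (0.957), Enpp4 (0.945) and Rapgef3 (0.941).

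After each group mean was taken out, the same measure read only how the 3 arrays of a group varied. Gstm1 (r = 0.973) and Trem3 (0.959) stayed among the 3 genes most like Elane, with Lmo4 (0.960), and the same 3 were most like Prtn3 (0.953, 0.971 and 0.940). Far2 stayed nearest to Ms4a3 (0.983), followed by Stc2 (0.957) and B4galt6 (0.938). The nearest to Ctsg were Dhodh (0.985), Akr1c18 (0.940) and Ap3s1 (0.940), and to Mpo Ppm1k (0.955), Mettl2 (0.927) and Aplf (0.911). Ctsc had Rhoc (0.990), Selenok (0.974) and Nabp1 (0.969), and Nkg7 had Ifi47 (0.983), Tnk1 (0.983) and Gstz1 (0.971).

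Other proteins of the azurophil granule were more often lower than higher in bcCML. Of 20 tested genes of this list, 9 were lower and 2 higher in bcCML among mutants, and 10 were lower and 1 higher among wild types, with medians of -0.48 and -0.53. The shares over all genes were 21.9% lower and 23.2% higher among mutants, and 19.3% and 17.7% among wild types. Fcnb, which encodes the lectin ficolin B, lay between 5.35 and 7.28 units in Msi2 mutant bcCML and between 4.64 and 7.27 in wild-type bcCML. It lay at 7036 to 16881 in Msi2 mutant AML and 1028 to 3056 in wild-type AML. Fcnb was under the 16-unit filter on every bcCML array, so its lower values in bcCML were favoured by the filter. Lyz1 and Lyz2, the lysozyme genes, and Man2b1, a lysosomal mannosidase, were also lower in both genotypes, with log2 differences of -5.87, -6.95 and -2.10 among mutants (SE 0.36, 0.45 and 0.20, limma adjusted p = 8.62e-07, 1.24e-06 and 1.63e-05). Between Msi2 mutant and wild-type AML, Fcnb was the 1 gene of the 20 that passed, higher in mutants by 2.46 ± 0.42 (SE, adjusted p = 0.0234), where 0.379% of all genes passed as higher. In bcCML 0 of the 20 passed, where 0.139% of all genes did.

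Genes of a protease inhibitor list, which was not limited to inhibitors of the granule proteases followed here, went both ways. Of 13 tested, 6 were lower and 3 higher in bcCML among mutants, and 7 lower and 3 higher among wild types, with medians of -0.23 and -0.51. Among all genes 21.9% were lower and 23.2% higher in mutants, and 19.3% and 17.7% in wild types. The stefin genes Stfa2l1 and Stfa3, cysteine protease inhibitors of myeloid cells, were lower in bcCML, at 8.39 to 32.7 and 6.45 to 18.5 units in Msi2 mutant bcCML against 5523 to 18378 and 2989 to 16220 in Msi2 mutant AML. The serpin genes Serpinb6b and Serpinb9, of which human SERPINB9 blocks granzyme B, were higher, at 259 to 331 and 63.0 to 106 units in Msi2 mutant bcCML and 135 to 208 and 28.9 to 55.2 in wild-type bcCML, against less than the filter level on all AML arrays. These 2 of the 3 higher genes met the filter only through the bcCML arrays, so their higher values were favoured by the filter. Serpinb1a, the inhibitor of elastase, proteinase 3 and cathepsin G, was at 1935 to 2681 units in Msi2 mutant bcCML and 2165 to 3616 in wild-type bcCML, against 4218 to 5928 in Msi2 mutant AML and 2616 to 4528 in wild-type AML, and passed among mutants (log2 difference -1.19 ± 0.26, SE, adjusted p = 0.00366). In AML, 2 of the 13 genes were lower in mutants, where 1.14% of all genes were. They were Wfdc17 and Wfdc18, which encode small proteins with a whey acidic protein domain. Wfdc18 passed the filter only through the wild-type AML arrays, at 47.4, 529 and 92.3 units. Its lower values in mutants were therefore favoured by the filter. Wfdc17 gave 100.68, 830 and 201 units in Msi2 mutant AML and 2781, 10330 and 7284 in wild-type AML, a log2 difference of -4.53 ± 0.84 (SE, adjusted p = 0.0322).

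Of 24 tested genes for storing and moving granule cargo, 8 were lower and 1 higher in bcCML among mutants, where 21.9% and 23.2% of all genes were. Among wild types 5 were lower and 1 higher, where 19.3% and 17.7% of all genes were, with medians of -0.27 among mutants and -0.29 among wild types. Lyst, the lysosomal trafficking regulator whose loss gives giant granules in Chediak-Higashi syndrome, was at 16.7 to 28.7 units in Msi2 mutant bcCML and 20.7 to 31.6 in wild-type bcCML, against 669 to 868 in Msi2 mutant AML and 319 to 413 in wild-type AML. Lyst was also the 1 gene of the 24 that passed between AML genotypes, higher in mutants by 1.11 ± 0.23 (SE, adjusted p = 0.046), where 0.379% of all genes passed as higher. Rab27b, a small GTPase of secretory granules, was higher in bcCML, at 632 to 1632 units in mutants and 603 to 894 in wild types, against 9.95 to 17.6 in Msi2 mutant AML and 8.73 to 16.1 in wild-type AML. The proteoglycan serglycin, on which azurophil proteins are packed, is encoded by Srgn and lay between 19272 and 24185 units on all 12 arrays.

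Genes of a transcription factor list, which was not limited to established regulators of primary granule genes, were more often lower than higher in bcCML. Of 20 tested, 9 were lower and 2 higher among mutants, and 8 lower and 1 higher among wild types, with medians of -0.40 and -0.24. Over all genes 21.9% passed as lower and 23.2% as higher among mutants, and 19.3% and 17.7% among wild types. Cebpd and Irf8 lay under the filter on all bcCML arrays, so their lower values in bcCML were favoured by it. Cebpa, which is needed to form granulocyte-monocyte progenitors, gave 883, 851 and 157 units in Msi2 mutant bcCML and 1169, 1889 and 661 in wild-type bcCML, against 3546, 4556 and 4457 in Msi2 mutant AML and 3784, 4816 and 4342 in wild-type AML. Its log2 difference between the leukaemias was -3.09 among mutants and -1.92 among wild types (SE 0.60, adjusted p = 0.00205 and 0.029). Gfi1 gave 171, 378 and 23.3 units in Msi2 mutant bcCML and 474, 806 and 292 in wild-type bcCML, against 4124, 3953 and 4276 in Msi2 mutant AML and 2611, 3582 and 1795 in wild-type AML. As with Elane, Prtn3 and Ctsg, array 3 was the lowest of both bcCML groups for Cebpa and Gfi1, which were picked after their values were seen. Among the other factors this held for Max and not for Spi1 or Sox4. Any part of these factors in the granule gene levels was not tested.

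The gene of PU.1, Spi1, and Irf8, which favours monocytes over granulocytes, were lower in bcCML as well. Spi1 lay at 121 to 168 units in Msi2 mutant bcCML and 124 to 246 in wild-type bcCML, against 1008 to 1695 in Msi2 mutant AML and 983 to 1300 in wild-type AML. Irf8 stayed under the 16-unit filter on every bcCML array and lay at 224 to 1227 units in Msi2 mutant AML and 1361 to 2006 in wild-type AML. Gata2, a factor of stem cells and mast cells, was higher in bcCML, at 14650 to 15490 units in mutants and 14995 to 16527 in wild types, against 187 to 881 in Msi2 mutant AML and 434 to 4901 in wild-type AML. Myb, named here because its motif was searched in the promoters, lay between 16091 and 26222 units on all 12 arrays and passed in none of the comparisons. Between Msi2 mutant and wild-type, 0 of the 20 factors passed in either leukaemia, where 1.52% of all genes passed in AML and 0.139% in bcCML. The differences of Cebpa and Gfi1 in bcCML were -1.21 ± 0.60 and -2.07 ± 0.82 (SE, limma adjusted p = 0.637 and 0.571).

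**Figure D5:**
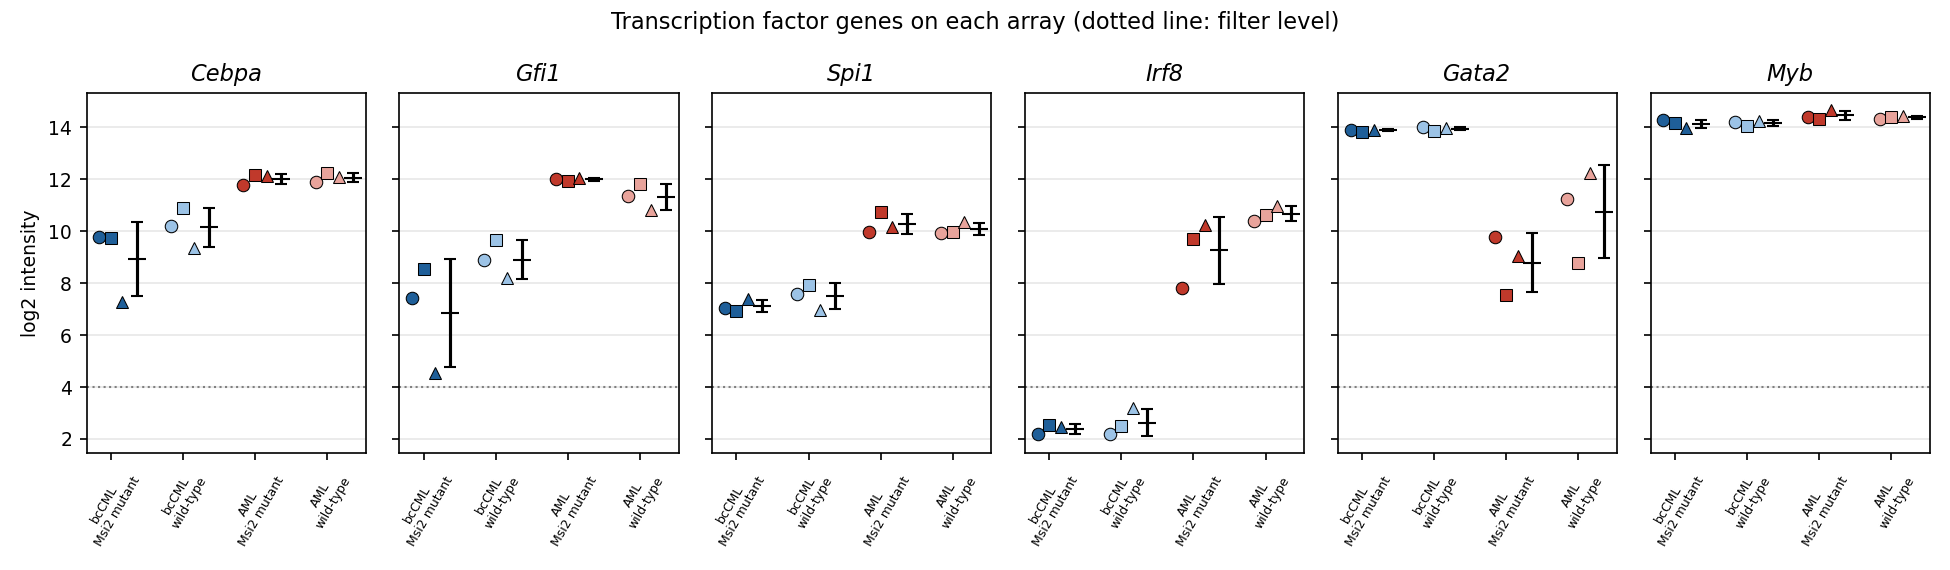
Log2 intensity (vertical axis) of 6 transcription factor genes on each array of the 4 groups, with arrays 1, 2 and 3 as circles, squares and triangles, the mean ± SD of 3 arrays as a black bar and the filter level of 4 as a dotted line. Cebpa, Gfi1, Spi1 and Irf8 lie lower in bcCML than in AML, Gata2 lies higher, and Myb lies near 14 in every group.

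Markers of other cells differed strongly between the leukaemias beside these genes. Of all genes, 21.9% passed as lower and 23.2% as higher in bcCML among mutants, and 19.3% and 17.7% among wild types. Of 20 tested secondary and tertiary granule genes, 19 were lower in bcCML in each genotype, and the medians were -6.34 among mutants and -4.43 among wild types. Of these 20, 8 lay under the filter on all Msi2 mutant bcCML arrays and 7 on all wild-type bcCML arrays. They met the filter through the AML arrays, so their lower values in bcCML were favoured by it. Of 17 tested granulocyte-monocyte progenitor markers, 12 were lower and 2 higher among mutants, and 12 lower and 1 higher among wild types, with medians of -3.56 and -2.38. Of these markers Fcnb, Csf1r, Csf3r and Irf8 lay under the filter on all bcCML arrays, so their lower values in bcCML were favoured by it. Between bcCML genotypes 1 of the 17 progenitor markers passed, as lower in mutants, where 0.102% of all genes did. It was Fcgr3, an Fc receptor gene, at 337, 486 and 223 units in Msi2 mutant bcCML and 2941, 2235 and 1202 in wild-type bcCML (log2 difference -2.58 ± 0.36, SE, adjusted p = 0.0314). Between AML genotypes 2 of the 17 progenitor markers passed, where 1.14% of all genes passed as lower and 0.379% as higher. Cd93 fell in mutants by 1.38 on the log2 scale (SE 0.27, adjusted p = 0.0396), and Fcnb was higher as given above. Of the 20 secondary and tertiary granule genes, 1 passed as higher in mutant AML and 1 as lower. Of all genes, 0.379% and 1.14% did. Ltf, the lactoferrin gene, was higher by 2.66 ± 0.55 (SE, adjusted p = 0.0467). Mmp8, a collagenase gene, gave 9.92, 23.9 and 15.0 units in Msi2 mutant AML and 132, 288 and 97.1 in wild-type AML. It met the filter through the wild-type AML arrays, so its lower values in mutants were favoured by the filter. The summed intensity of 15 monocyte and macrophage markers was 2747 to 3574 units in Msi2 mutant bcCML and 2096 to 2830 in wild-type bcCML, against 20800 to 91120 in Msi2 mutant AML and 47923 to 60920 in wild-type AML, with Csf1r, Cd14, Mpeg1 and Ms4a6c under the filter on all bcCML arrays. The sum of 6 erythroid markers was 24091 to 29158 units in Msi2 mutant bcCML and 21175 to 28752 in wild-type bcCML, against 76.4 to 517 in Msi2 mutant AML and 59.6 to 593 in wild-type AML, with Klf1, Epor, Car1 and Gata1 under the filter on all AML arrays. The part of these cell markers in the lower Elane, Prtn3 and Ctsg levels was not tested.

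Nkg7 stood beside few other genes of cytotoxic lymphocytes. Of 16 T and NK cell markers with a probe set, 3 passed the filter (Cd2, Prf1 and Gzmb). Gzmb, the granzyme B gene, gave 5510, 5443 and 3344 units in Msi2 mutant bcCML and 1945, 985 and 2384 in wild-type bcCML, while all 6 AML arrays read 4.51 or 4.52 units. Gzmb lies near Ctsg on chromosome 14 in the same cluster of serine proteases, as do Cma1, a mast cell chymase, and Mcpt8, a basophil protease. Cma1 lay between 31.5 and 350 units in Msi2 mutant bcCML and gave 101.45, 100.68 and 26.6 in wild-type bcCML, and was under the filter on all AML arrays, whereas Mcpt8 passed in none of the comparisons. Gzmb had higher values in bcCML in both genotypes, where Ctsg was lower among mutants. Since Gzmb passed the filter only through the bcCML arrays, its difference from AML is given as values without a test.

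Mpo lies on chromosome 11, as does the trapped gene Msi2, with 6 tested genes between them in the RefSeq order: Mks1, Dynll2, Srsf1, Vezf1, Cuedc1 and Mrps23. Next to Msi2, Mrps23 was lower in Msi2 mutant AML by a log2 difference of -0.81 ± 0.13 (SE, limma adjusted p = 0.0211), and Cuedc1 was higher in Msi2 mutant bcCML by 4.29 ± 0.60 (adjusted p = 0.0314). The other 4 genes passed in neither leukaemia. Tspoap1, a tested neighbour of Mpo on its far side from Msi2, gave 82.8, 178 and 88.6 units in Msi2 mutant bcCML against 389, 209 and 194 in wild-type bcCML, and 1892, 2149 and 1787 units in Msi2 mutant AML against 791, 1179 and 560 in wild-type AML. Like Mpo it had higher values in mutant than in wild-type AML and did not pass (log2 difference 1.27 ± 0.37, adjusted p = 0.143).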

How the data were processed

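RNA was measured on 12 Affymetrix arrays. Per the submitters' processing notes the deposited intensity values were made with GCRMA. Its version is not given in the sources used here. The method subtracts a sequence-based background, which presses dim probe sets onto a floor (lowest value 4.49) and so shortens the differences of dim genes. Each array held 45037 probe sets, with medians of 13.1 to 13.8 units. Of these, 34945 had 1 gene symbol in the annotation table used, 932 several and 9160 none listed. Log2 was taken with no pseudocount. Probe sets above a log2 of 4 (16 units) on at least 3 of 12 arrays stayed in, and the brightest one stood for its gene.

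Group means were fitted with limma 3.58.1 (R 4.3.3) over all 12 arrays, with 8 residual and 2.19 prior degrees of freedom. Tests were two-sided, and the fit was tested on simulated data. The genes named were the 8 genes, from each list at most 4 genes, those of smallest p, and the 3 most similar genes by each measure. Srgn, Serpinb1a, Mcpt8, Cma1, Myb, Max, Sox4 and Kit fall outside this rule and were chosen after their values were seen. The same holds for Siglecf, Cebpa, Gfi1, Cd14, Mpeg1, the other factors drawn and the neighbours of Mpo. The genes, lists and tests were chosen with earlier results of these data known. Same-numbered mutant and wild-type arrays had deviations correlated at 0.396, 0.364 and 0.278 in bcCML, where the numbers were treated as pairs, which no label states, and at -0.055, -0.121 and -0.030 in AML. Same-numbered arrays of bcCML and AML correlated at 0.016, 0.235 and 0.111 among wild types and at 0.036, -0.024 and -0.076 among mutants. The number of arrays limits the precision. Alternatives changed the filter, the choice of probe set, a pseudocount, the normalization, the eBayes prior, array weights, the samples fitted and the block, and left out each array. Promoters came from a RefSeq table and were searched with Python 3.11.15.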

Additional observations from a re-analysis of the deposited data

How the results depend on the processing

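The number of genes past the threshold depended on the settings. As reported it was 164 genes in AML, 15 in bcCML, 0 for the difference of the Msi2 effect, 3996 between wild types and 4875 between mutants. Array weights gave 1053, 71, 126 and, between wild types, 6122. Testing each probe set on its own gave 6 for the difference of the effect, 6511 between wild types and 8248 between mutants. Without the filter the counts were 105 in AML and 5 for the difference. Fitting the 2 compared groups alone left 0 in AML and 0 in bcCML. In bcCML, a filter at log2 of 6 gave 6, the mean over probe sets 9, adding 16 units 25 and a trended robust prior 8. Adding 16 units gave 3 and quantile normalization 4 for the difference. With the replicate number as a block the counts were 63 in AML, 27 in bcCML and 1 for the difference, and the block changed 1 call of the 7 genes, Ctsc between wild types (1.34, adjusted p = 0.0450). The AML numbers share only a number. Leaving out 1 array gave 43 to 182 genes in AML, 7 to 22 in bcCML, 0 to 21 for the difference, 3137 to 4351 between wild types and 4003 to 4903 between mutants.

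Of the 7 genes, leaving out 1 array gave 3 to 6 passing between mutants, 3 to 4 between wild types, 0 to 1 in AML, and 0 in bcCML and for the difference. Without the filter 3 passed between mutants, Mpo (adjusted p = 0.0772), Ms4a3 (0.0507) and Ctsc (0.107) being lost. With array weights 5 passed between wild types and 1 in AML, Nkg7 (1.16, adjusted p = 0.0263). Directions turned only for differences that passed nowhere. Ctsc gave -0.11 for the difference of the effect with the mean over probe sets, and -0.55 to 0.49 with 1 array left out. In AML, Ctsc gave -0.81 to 0.23, turning without mutant array 1. Mpo in bcCML gave -1.18 to 0.0509, turning without mutant array 3. Between wild types Mpo gave -0.41 with array weights and -0.58 to 1.17 with 1 array left out, and Ms4a3 -0.53 to 0.25. The cause was not tested. No scaling moved the median of all genes by as much as 0.1.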
